A study of Mus musculus with 24 samples.

Results

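The 30 genes that serve as markers of astrocytes were followed in the mouse spinal cord, first around the central canal after an injury and then in neurosphere cultures deprived of growth factors. The genes were taken from a list of 30 symbols, and each was read from the probe sets that name that symbol alone. Where several probe sets did, the one with the highest mean log2 signal over the 12 arrays of its table was used. On the ependymal arrays 28 of the 30 genes were found, among 17097 genes with such a probe set, and Glul and Slc6a11 were not analysed there. On the neurosphere arrays all 30 were found, among 22180 genes.

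The series holds 24 arrays. Of these 12 carry RNA of the central canal region, cut out by laser from the thoracic cord of CD1 mice aged 3 months, 3 days after surgery. The 6 injured mice had a laminectomy and needle insertions into the cord, and the 6 sham mice had the laminectomy alone. The other 12 arrays carry RNA of 4 neurosphere cultures derived from the spinal cord of adult CD1 mice, each culture in 3 conditions. In the re EF condition EGF, FGF2 and heparin were given back for 3 days, after removal of the serum. In the w/o EF condition the cells had spent 3 days on coverslips coated with poly-D-lysine and laminin, with no growth factor and with 2% fetal bovine serum. In the with EF condition the cells grew as spheres with EGF, FGF2 and heparin. Loss of the growth factors, serum and the coated surface came together, so that their parts cannot be told apart. On return the serum was taken away as the growth factors came back, and these parts cannot be told apart either. The re EF cells had also been through the w/o EF step, which the with EF cells had not. The labels give passage 1, whereas the methods state a later passage and in one place a longer withdrawal. The sources used here do not name the sex of the mice. The mouse number ties the 3 conditions of a culture together, whereas injured and sham mice are different animals.

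Astrocytes clear glutamate and GABA from the extracellular space, buffer potassium and bicarbonate, supply neurons with lipids and metabolites and contact vessels through their end feet. In the injured cord they become reactive, and ependymal cells lining the central canal can divide and give rise to astrocytes. Spinal cord neurospheres, spheres of dividing neural progenitors grown in EGF and FGF2, turn mainly to astrocytes when these factors are withdrawn. The 30 genes cover several of these functions and many are not restricted to astrocytes. The comparisons asked whether the injured ependymal region and the cultures without growth factors differed from their references in the same astrocyte genes and in the same direction.

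Values are log2 signals made by the authors with RMA, so a difference of 1 is a doubling. A gene was called when the Benjamini-Hochberg adjusted p of limma, taken over all probe sets of its table, was below 0.05. Since the tables come from different types of array and were normalized apart, no level was set across them and nothing was tested between them. These are bulk samples, in which fewer cells of a type and less RNA per cell cannot be told apart.

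The ependymal arrays fell into 3 sets by the quantiles of their signals, with replicates 1 and 2 of both groups in set 1, replicates 3 and 4 in set 2 and replicates 5 and 6 in set 3. No source used here says what sets them apart. Sham replicates 3, 4 and 6 and injured replicate 6 stood apart in a list of 10 skeletal muscle genes, with means of 7.92 to 9.32 log2 units against 4.68 to 6.16 on the other 8 arrays. The measured neutrophil genes, 5 in number, spread more widely, with means of 11.05 to 12.12 on injured replicates 3 and 4 and sham replicates 3, 4 and 6, against 4.70 to 8.08 on the other 7 arrays. The mean of 4 erythroid genes was 5.44 to 8.27 on injured arrays and 5.67 to 9.37 on sham arrays, highest on the same 5 arrays. The mean of 12 ependymal genes was 8.78 to 9.18 on injured arrays and 9.55 to 9.96 on sham arrays, and 8 of the 12 fell after injury. The mean of 13 microglia and macrophage genes was 6.65 to 7.42 on injured arrays and 5.95 to 6.89 on sham arrays, and 5 of the 13 rose. Of 12 neuronal genes 1 fell, and their mean was 6.88 to 8.96 on injured arrays and 8.19 to 9.61 on sham arrays. The part of these other cells in the values of the astrocyte genes was not tested. Between arrays of the same table Pearson's r was 0.899 to 0.9962 in the ependyma and 0.9358 to 0.993 in the neurospheres.

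Of the 28 genes measured on both array types 5 were called both after injury and after growth factor withdrawal, namely Aldoc, Atp1b2, Fabp7, Mfge8 and Agt. Among the 15938 genes found in both tables, 155 rose in both and 22 fell in both. Another 128 rose after injury and fell after withdrawal, and 135 did the reverse. Their promoters are shown because these are the genes in which the profiles of the injured region and of the cultures meet or part. The sequences run from 250 bases before to 50 bases after the start of the gene, 5′ to 3′, in build GRCm38.p6 (RefSeq), and Atp1b2 had no entry. Capitals mark the half-site TTGGC of NFI factors, the family of Nfia and Nfib, and the motif TTCNNNGAA of STAT factors, which carry cytokine signals to the nucleus. Both motifs were searched on both strands and none overlapped in these sequences.
Aldoc, first start site, chr11:78322823-78323122, plus strand: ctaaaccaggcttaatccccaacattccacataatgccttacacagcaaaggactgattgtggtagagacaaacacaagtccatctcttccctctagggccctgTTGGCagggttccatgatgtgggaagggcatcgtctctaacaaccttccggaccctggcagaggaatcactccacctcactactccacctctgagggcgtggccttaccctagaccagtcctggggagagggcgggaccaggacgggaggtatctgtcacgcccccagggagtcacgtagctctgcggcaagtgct
Aldoc, second start site, chr11:78323948-78324247, plus strand: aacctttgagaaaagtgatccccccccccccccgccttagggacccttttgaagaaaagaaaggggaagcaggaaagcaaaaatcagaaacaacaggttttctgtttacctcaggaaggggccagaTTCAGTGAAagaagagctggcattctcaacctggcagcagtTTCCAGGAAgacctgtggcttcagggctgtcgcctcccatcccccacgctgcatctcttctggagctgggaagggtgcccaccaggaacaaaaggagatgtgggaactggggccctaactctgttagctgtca
Fabp7, chr10:57784673-57784972, plus strand: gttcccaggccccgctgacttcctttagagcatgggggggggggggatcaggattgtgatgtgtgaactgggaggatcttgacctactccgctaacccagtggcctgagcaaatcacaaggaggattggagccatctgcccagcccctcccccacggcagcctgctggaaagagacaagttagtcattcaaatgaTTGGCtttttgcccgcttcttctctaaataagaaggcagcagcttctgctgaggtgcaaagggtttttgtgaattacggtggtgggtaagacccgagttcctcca
Agt, chr8:124569657-124569956, minus strand: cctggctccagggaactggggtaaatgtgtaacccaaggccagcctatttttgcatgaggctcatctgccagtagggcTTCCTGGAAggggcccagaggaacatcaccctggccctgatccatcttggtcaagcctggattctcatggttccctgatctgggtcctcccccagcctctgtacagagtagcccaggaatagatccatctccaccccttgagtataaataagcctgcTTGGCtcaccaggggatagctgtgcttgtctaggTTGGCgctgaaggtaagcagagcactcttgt
Mfge8, chr7:79149011-79149310, minus strand: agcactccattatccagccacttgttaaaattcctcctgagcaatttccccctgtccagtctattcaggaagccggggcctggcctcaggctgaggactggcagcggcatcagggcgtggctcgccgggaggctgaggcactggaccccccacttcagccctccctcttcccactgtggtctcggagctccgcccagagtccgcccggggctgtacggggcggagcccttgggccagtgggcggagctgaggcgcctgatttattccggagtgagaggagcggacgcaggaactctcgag

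The STAT motif was present at the second Aldoc start site, in 2 copies, and in the Agt promoter, in 1 copy. The NFI half-site was found once at the first Aldoc start site, once in Fabp7 and in 2 copies in Agt, and the Mfge8 promoter held neither. Of the 30 astrocyte genes 26 had at least 1 promoter in the table, 33 promoters in all. The STAT motif was in 6 of these 33 promoters (18.2%), of Aldoc, Slc1a3, Ntsr2, Acsbg1, Agt and Pla2g7, and in 8.3% of all 32851 promoters of the same length. The NFI half-site was in 16 of the 33 (48.5%) and in 46.7% of all. A match of letters is a description of the sequence and no evidence that a factor binds there.

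After injury 5 of 28 astrocyte genes rose and 1 fell, where 2.91% of all genes rose and 1.87% fell. Fabp7, Aldh1l1, Aldoc, Atp1b2 and Mfge8 were higher in the injured region and Agt was lower. At an unadjusted p below 0.05, 7 were higher and 4 lower. The share of all genes at this looser threshold was not taken, so these counts have no background. The median log2 difference of the 28 genes was 0.13, against 0.02 over all genes, and the differences ran from -1.25 to 2.15. The injured and sham arrays did not overlap in 6 of the 28 genes, the same 6 that were called, and in 4.43% of all genes. The other 22 genes were not called 3 days after injury.

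**Figure D1:**
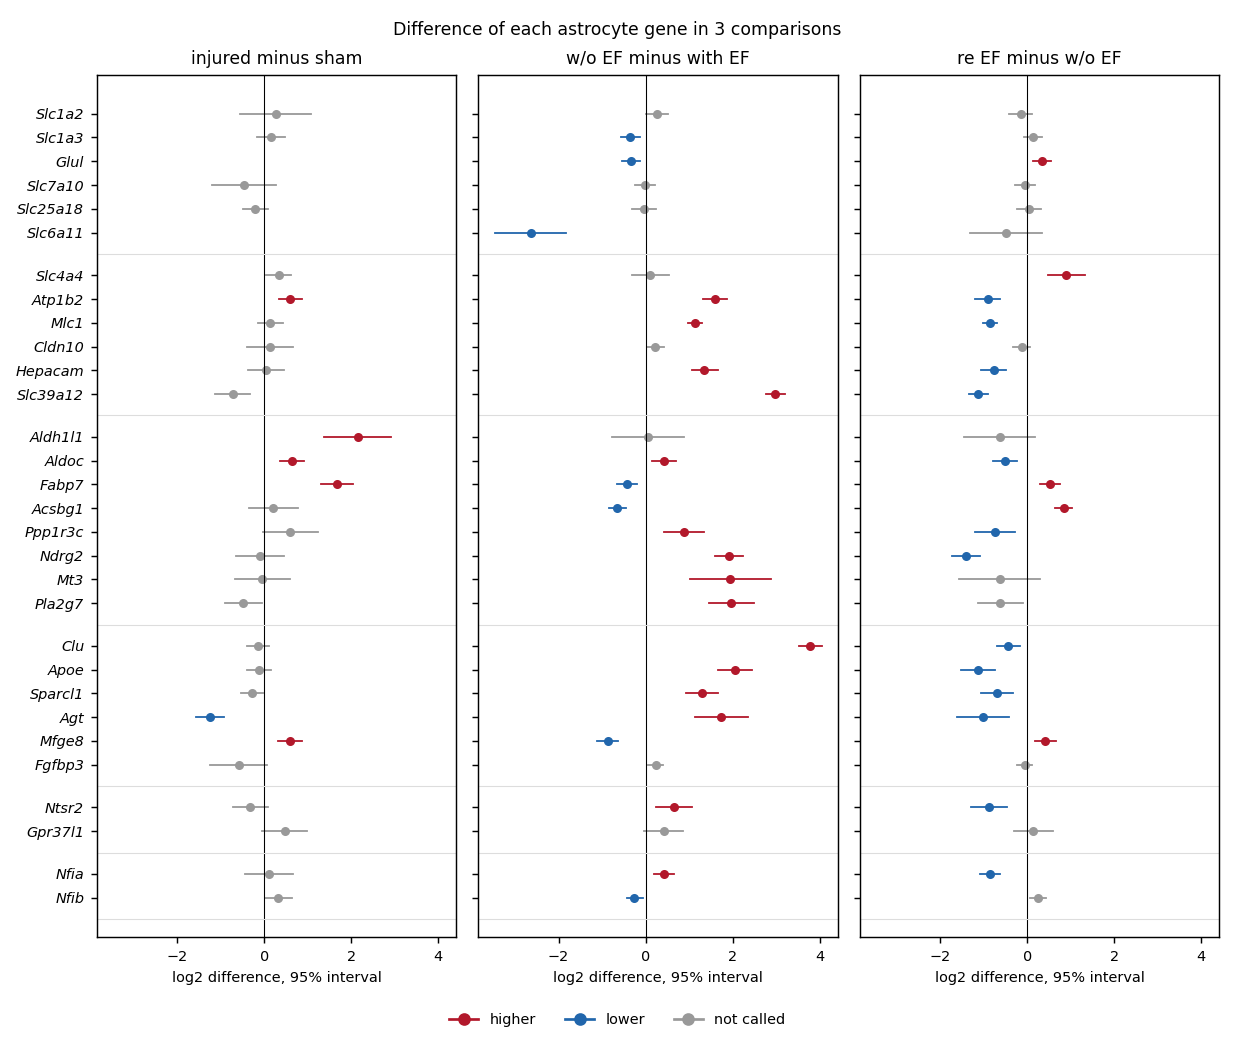
Log2 difference of each astrocyte gene with its 95% confidence interval in 3 comparisons (injured minus sham, w/o EF minus with EF, re EF minus w/o EF), genes grouped by role from glutamate handling at the top to transcription factors at the bottom. Red points were called higher, blue points lower and grey points not called. After injury 5 genes were called higher and 1 lower, after withdrawal 15 and 7, and Glul and Slc6a11 have no point in the first panel.

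Among the genes of metabolism, binding proteins and enzymes, 3 of 8 rose after injury. Fabp7, a fatty acid binding protein of radial glia and immature astrocytes, had log2 signals of 11.65, 12.06 and 12.10 (lowest, median and highest of 6) in injured mice, against 9.79, 10.26 and 10.74 in sham mice. The groups were apart on every array, and the mean was 1.68 log2 units higher in injured mice (SE 0.17, 3.2-fold, limma adjusted p = 1.3e-04). The difference was 1.35, 1.87 and 1.82 in the 3 sets of arrays.

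Aldh1l1, a folate enzyme widely used as an astrocyte marker, had 6.51, 7.14 and 8.03 log2 units in injured mice and 4.14, 4.97 and 6.01 in sham mice. It showed the largest difference among the 28 genes, 2.15 (SE 0.35, 4.43-fold, limma adjusted p = 0.0042), with no overlap and with 1.95, 2.21 and 2.29 in the 3 sets. Its dimmer probe set gave a difference of 0.13 (limma adjusted p = 1), so the call belongs to 1 of 2 probe sets.

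Aldoc, the brain form of the glycolytic enzyme aldolase, had 11.70, 11.97 and 12.01 log2 units in injured mice and 10.90, 11.36 and 11.54 in sham mice. All injured arrays lay above all sham arrays, by 0.65 on average (SE 0.13, 1.57-fold, limma adjusted p = 0.012). Its dimmer probe set was higher by 1.46, which did not pass the test (limma adjusted p = 0.096).

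The other enzymes and binding proteins were not called. Acsbg1, an acyl-CoA synthetase for long fatty acids, differed by 0.21, Ndrg2, a cytoplasmic protein enriched in astrocytes, by -0.10, and Mt3, a metallothionein that binds zinc and copper, by -0.05. Ppp1r3c, which directs protein phosphatase 1 to glycogen, differed by 0.60 (95% interval -0.03 to 1.23). Pla2g7, which inactivates platelet-activating factor, differed by -0.48 (-0.90 to -0.06, limma adjusted p = 0.31).

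Of the genes of ion transport and membrane contacts 1 of 6 rose. Atp1b2, the β2 subunit of the sodium pump and an adhesion molecule of glia, had 11.49, 11.64 and 11.78 log2 units in injured mice and 10.75, 10.97 and 11.38 in sham mice. The groups did not overlap and the difference was 0.60 (SE 0.12, 1.52-fold, limma adjusted p = 0.015). Its dimmer probe set was higher by 0.48, which did not pass the test (limma adjusted p = 0.24).

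Slc39a12, a zinc transporter, had 9.15, 9.91 and 10.34 log2 units in injured mice and 10.21, 10.70 and 10.81 in sham mice, with a little overlap. Its difference of -0.72 missed the threshold (SE 0.19, limma adjusted p = 0.058) but passed in a fit with the set as a block (0.0017). Mlc1 and Hepacam, which form a membrane complex at astrocyte contacts, differed by 0.14 and 0.04. Slc4a4, a sodium bicarbonate cotransporter, differed by 0.34 and Cldn10, a claudin, by 0.14.

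Among the 6 secreted proteins 1 rose and 1 fell. Mfge8, a glycoprotein that bridges dying cells to phagocytes, had 8.34, 8.49 and 9.02 log2 units in injured mice and 7.87, 7.96 and 8.21 in sham mice. The groups did not overlap and differed by 0.59 (SE 0.12, 1.5-fold, limma adjusted p = 0.021), although this call was lost with arrays centred on their medians (0.21), after quantile normalization (0.084), with the trended and robust variance model (0.074) and without sham replicate 1 or 2 (differences of 0.57 and 0.56, adjusted p of 0.052 and 0.053).

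Agt, the angiotensin precursor angiotensinogen, had 6.86, 7.19 and 7.45 log2 units in injured mice and 8.08, 8.44 and 8.84 in sham mice. It fell by 1.25 (SE 0.15, limma adjusted p = 4.4e-04), with every injured array below every sham array, and by 1.43, 1.13 and 1.18 in the 3 sets. Agt was the single astrocyte gene called lower after injury. Clu (clusterin, an extracellular chaperone) differed by -0.14 with a 95% interval of -0.39 to 0.11. Apoe, the main lipid carrier of astrocytes, differed by -0.11 (-0.39 to 0.16). Sparcl1, a matrix protein that promotes synapses, differed by -0.27 (limma adjusted p = 0.37) and Fgfbp3, which binds fibroblast growth factors, by -0.59 (0.55).

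**Figure D2:**
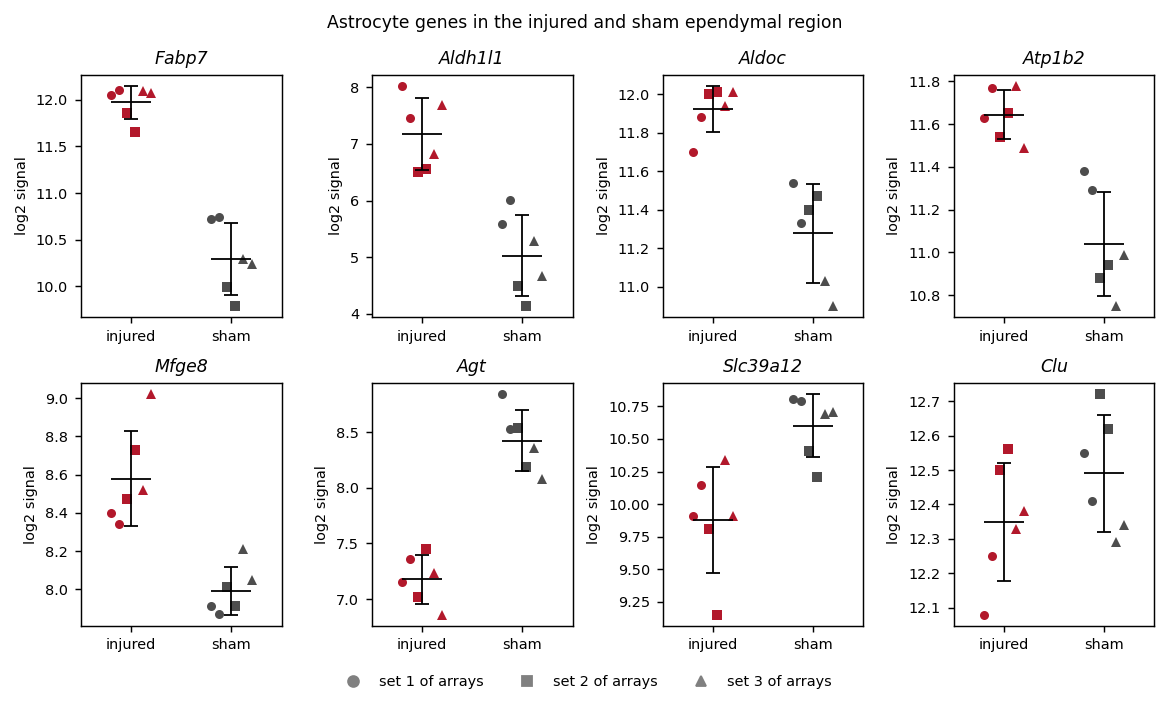
Log2 signal (vertical axis) of 8 astrocyte genes on the 6 injured arrays (red, left) and the 6 sham arrays (grey, right), with a bar at the mean and whiskers of 1 SD, and symbols for the 3 sets of arrays. Injured and sham points are apart for Fabp7, Aldh1l1, Aldoc, Atp1b2, Mfge8 and Agt, and overlap for Slc39a12 and Clu, where the differences were -0.72 and -0.14.

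Of the 4 measured genes of glutamate and amino acid handling 0 were called by limma, and 0 had an unadjusted p below 0.05. Slc1a2, the main glutamate transporter of astrocytes (GLT-1), differed by 0.26 with a 95% interval of -0.56 to 1.08, and Slc1a3, the transporter GLAST, by 0.15 (-0.16 to 0.47). The only Slc1a3 probe set was below the array median on all 12 ependymal arrays, which limits what it can show. Slc25a18, a mitochondrial glutamate carrier, differed by -0.20 and Slc7a10, a transporter of small neutral amino acids, by -0.46. The receptors Ntsr2, which binds neurotensin, and Gpr37l1 differed by -0.32 and 0.47. Nfia and Nfib, transcription factors of gliogenesis, differed by 0.11 and 0.32 and were not called.

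The calls after injury varied with the arrays left out and with the fit. Leaving out the 4 arrays highest in muscle genes kept injured replicates 1 to 5 and sham replicates 1, 2 and 5. Leaving out the 5 highest in neutrophil genes kept injured replicates 1, 2, 5 and 6 and the same sham replicates. With fewer arrays a lost call does not by itself show a smaller difference. The choice by muscle genes also took out every sham array of set 2 and kept injured replicates 3 and 4. The sets were then unequal between the groups, so without a block the differences mix injury with the sets. Without the 4 arrays highest in muscle genes 1 gene was called higher, Fabp7, and 1 lower, Agt, where 1.90% of all genes were higher and 1.26% lower. Aldh1l1 then differed by 1.45 (limma adjusted p = 0.093), Aldoc by 0.61 (0.10), Atp1b2 by 0.53 (0.18) and Mfge8 by 0.50 (0.16). With all arrays these differences were 2.15, 0.65, 0.60 and 0.59. With these arrays left out and the set as a block, a fit chosen after seeing the data, 7 genes were called higher and 2 lower, where 10.4% of all genes were higher and 8.73% lower. Without the 5 arrays highest in neutrophil genes, also chosen after seeing the data, 3 genes were higher, Fabp7, Aldh1l1 and Ppp1r3c, and Agt was lower, where 3.63% of all genes were higher and 2.15% lower. Aldoc then differed by 0.58 (limma adjusted p = 0.11), Atp1b2 by 0.53 (0.2) and Mfge8 by 0.57 (0.19). With all arrays and the set as a block, 8 genes were higher and 5 lower, where 12% of all genes (2046 of 17097) were higher and 13.1% lower, with Slc1a2, Ppp1r3c and Gpr37l1 joining the higher genes and Slc39a12, Pla2g7, Sparcl1 and Fgfbp3 the lower ones.

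After growth factor withdrawal 15 of 30 astrocyte genes rose and 7 fell, where 12.1% of all genes rose and 16.2% fell. The median log2 difference of the 30 genes was 0.41, against 0.00 over all genes. The w/o EF and with EF arrays did not overlap in 22 of the 30 genes and in 30.1% of all genes. The genes that rose were mostly those of secreted proteins, enzymes and membrane contacts, whereas of 6 genes of glutamate, GABA and amino acid handling 0 rose and 3 fell.

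Of the 6 secreted proteins 4 rose and 1 fell. Clu had log2 signals of 8.77, 9.14, 8.78 and 8.85 in the 4 w/o EF cultures and 5.21, 5.26, 5.12 and 4.83 in the with EF cultures. The difference of 3.78 was the largest of the list (SE 0.12, 13.7-fold, limma adjusted p = 2.8e-09), and the cultures of a condition lay close together.

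Apoe had 6.89, 6.83, 6.61 and 6.09 log2 units in w/o EF cultures and 4.69, 4.57, 4.70 and 4.23 in with EF cultures. It rose by 2.05 (SE 0.17, 4.15-fold, limma adjusted p = 3.1e-06), and culture 4 was the lowest in both conditions.

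Agt had 7.17, 7.42, 6.25 and 5.85 log2 units in w/o EF cultures and 4.87, 4.82, 5.08 and 4.96 in with EF cultures. The mean rise was 1.74 (SE 0.28, 3.34-fold, limma adjusted p = 5.3e-04), but it was 2.30 and 2.60 in cultures 1 and 2 and 1.17 and 0.88 in cultures 3 and 4.

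Sparcl1 had 11.44, 11.16, 10.82 and 10.66 log2 units in w/o EF cultures and 10.08, 9.81, 9.61 and 9.43 in with EF cultures, a rise of 1.29 (SE 0.17, limma adjusted p = 1.3e-04). The groups did not overlap, and the order of the 4 cultures was the same in both conditions.

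Mfge8 went the other way, with 6.50, 6.67, 6.83 and 6.78 log2 units in w/o EF cultures and 7.68, 7.76, 7.41 and 7.41 in with EF cultures. It fell by 0.87 (SE 0.11, limma adjusted p = 8.3e-05), by 1.18 and 1.09 in cultures 1 and 2 and by 0.58 and 0.63 in cultures 3 and 4. Fgfbp3 differed by 0.23 and was not called (limma adjusted p = 0.062).

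Of the genes of ion transport and membrane contacts 4 of 6 rose. Slc39a12 had 9.83, 9.84, 9.77 and 9.56 log2 units in w/o EF cultures and 6.65, 6.87, 6.67 and 6.88 in with EF cultures. It rose by 2.98 (SE 0.10, 7.9-fold, limma adjusted p = 3.5e-09), with a spread within each condition far below the difference.

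Atp1b2 had 10.45, 10.12, 10.39 and 9.94 log2 units in w/o EF cultures and 8.83, 8.61, 8.67 and 8.46 in with EF cultures. Its rise of 1.59 (SE 0.13, 3-fold, limma adjusted p = 1.9e-06) was between 1.49 and 1.72 in each culture.

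Hepacam and Mlc1 rose together. Hepacam had 9.98, 9.95, 9.91 and 9.99 log2 units in w/o EF cultures and 8.38, 8.54, 8.64 and 8.86 in with EF cultures, a difference of 1.35 (SE 0.13, limma adjusted p = 1.1e-05). Mlc1 had 11.08, 11.09, 10.95 and 10.97 in w/o EF cultures and 9.81, 10.00, 9.85 and 9.89 in with EF cultures, a difference of 1.14 (SE 0.08, limma adjusted p = 3.8e-07). For both genes every w/o EF culture lay above every with EF culture. Slc4a4 differed by 0.11 (95% interval -0.31 to 0.54) and Cldn10 by 0.22, and the Cldn10 probe set was below the array median on all 12 arrays.

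Of the 8 genes of metabolism, binding proteins and enzymes 5 rose and 2 fell. Pla2g7 had 10.44, 10.02, 10.13 and 9.33 log2 units in w/o EF cultures and 8.15, 7.77, 8.45 and 7.70 in with EF cultures, a rise of 1.97 (SE 0.24, limma adjusted p = 6.2e-05). Ndrg2 had 9.91, 10.00, 9.81 and 9.33 in w/o EF cultures and 8.12, 7.86, 7.81 and 7.58 in with EF cultures, a rise of 1.92 (SE 0.15, limma adjusted p = 1.4e-06). In both genes culture 4 was the lowest in each condition, and no w/o EF value reached down to a with EF value.

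Mt3 had 9.08, 9.38, 9.48 and 9.74 log2 units in w/o EF cultures and 6.47, 6.70, 8.22 and 8.52 in with EF cultures. The growing cultures themselves fell into a low and a high pair, so that the rise of 1.94 (SE 0.43, limma adjusted p = 0.0052) was 2.61 and 2.68 in cultures 1 and 2 and 1.26 and 1.22 in cultures 3 and 4.

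Ppp1r3c had 8.90, 8.08, 8.34 and 7.88 log2 units in w/o EF cultures and 7.70, 7.23, 7.70 and 7.04 in with EF cultures, and rose by 0.88 (SE 0.21, limma adjusted p = 0.0093). Aldoc had 10.07, 10.06, 9.60 and 9.79 in w/o EF cultures and 9.26, 9.63, 9.41 and 9.56 in with EF cultures. Its rise of 0.42 (SE 0.13, 1.33-fold, limma adjusted p = 0.033) was small, and the conditions overlapped.

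Acsbg1 had 8.44, 8.20, 8.55 and 8.48 log2 units in w/o EF cultures and 8.95, 9.08, 9.16 and 9.11 in with EF cultures, and fell by 0.66 (SE 0.09, limma adjusted p = 1.5e-04). Fabp7 had 11.19, 11.02, 11.44 and 11.04 in w/o EF cultures and 11.68, 11.55, 11.67 and 11.49 in with EF cultures, and fell by 0.43 (SE 0.11, limma adjusted p = 0.012). Both genes were lower in all 4 cultures and the conditions did not overlap. Aldh1l1 was not called, at 4.58, 3.87, 5.46 and 5.51 log2 units in w/o EF cultures and 4.80, 4.82, 4.90 and 4.72 in with EF cultures. Its difference was 0.05 with a 95% interval of -0.77 to 0.87, and 2 cultures were lower and 2 higher.

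Among the genes of glutamate, GABA and amino acid handling, Slc6a11, the GABA transporter GAT-3, showed the largest fall of the list. It had 6.96, 6.94, 6.04 and 5.02 log2 units in w/o EF cultures and 8.91, 8.88, 8.89 and 8.85 in with EF cultures. The values were tight in growing cultures and spread over nearly 2 log2 units after withdrawal, and the difference was -2.64 (SE 0.38, limma adjusted p = 2.3e-04).

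Slc1a3 had 9.92, 9.94, 9.93 and 9.71 log2 units in w/o EF cultures and 10.36, 10.19, 10.25 and 10.10 in with EF cultures, and fell by 0.35 (SE 0.10, limma adjusted p = 0.021). Glul, which makes glutamine from glutamate, had 8.54, 8.42, 8.34 and 8.62 in w/o EF cultures and 8.78, 8.96, 8.70 and 8.82 in with EF cultures. It fell by 0.34 (SE 0.09, limma adjusted p = 0.02), but its second, dimmer probe set was higher by 0.31 (0.28) and the mean of both was not called. Slc1a2, Slc25a18 and Slc7a10 differed by 0.26, -0.05 and -0.02.

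The 2 transcription factors were called in opposite directions. Nfia had 9.58, 9.96, 9.55 and 9.57 log2 units in w/o EF cultures and 9.32, 9.39, 9.11 and 9.18 in with EF cultures, and rose by 0.41 (SE 0.10, limma adjusted p = 0.011). Nfib had 9.71, 9.94, 9.82 and 9.64 in w/o EF cultures and 10.10, 10.13, 10.03 and 9.88 in with EF cultures, and fell by 0.26 (SE 0.08, limma adjusted p = 0.048). The Nfia conditions did not overlap, whereas those of Nfib did. Of the receptors, Ntsr2 had 6.85, 6.49, 6.02 and 5.93 in w/o EF cultures and 5.74, 5.82, 5.54 and 5.58 in with EF cultures. Ntsr2 rose by 0.65 (SE 0.19, limma adjusted p = 0.027), and no w/o EF culture was as low as a with EF culture. Gpr37l1 differed by 0.41 (95% interval -0.04 to 0.86).

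Of the 22 calls 5 were lost when single arrays were left out. That of Aldoc was lost without w/o EF culture 1 or 2 or with EF culture 1 or 3 (differences of 0.35 to 0.40, limma adjusted p of 0.08 to 0.099). That of Ntsr2 was lost without w/o EF culture 1 or 2 or with EF culture 3 or 4 (0.48 to 0.62, adjusted p of 0.06 to 0.072). That of Slc1a3 was lost without w/o EF culture 4 or with EF culture 1 or 3 (-0.34 to -0.29, adjusted p of 0.055 to 0.069), and that of Glul without w/o EF culture 2 or 3 or with EF culture 2 (-0.31 to -0.29, adjusted p of 0.051 to 0.064). That of Nfib was lost without any re EF culture, w/o EF culture 1, 3 or 4 or with EF culture 1, 2 or 3 (-0.27 to -0.21, adjusted p of 0.061 to 0.13). The calls of Aldoc and Ntsr2 were also lost with arrays centred on their medians, those of Slc1a3, Glul and Nfib after quantile normalization, and those of Aldoc and Nfib in a fit of these conditions alone.

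The 15 genes that rose were higher in all 4 cultures, which the call on the same values makes likely. The share among all genes called higher was not taken. Culture 4 had the lowest w/o EF signal in 9 of the 15, and was also the lowest in 45.9% of all genes called higher.

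**Figure D3:**
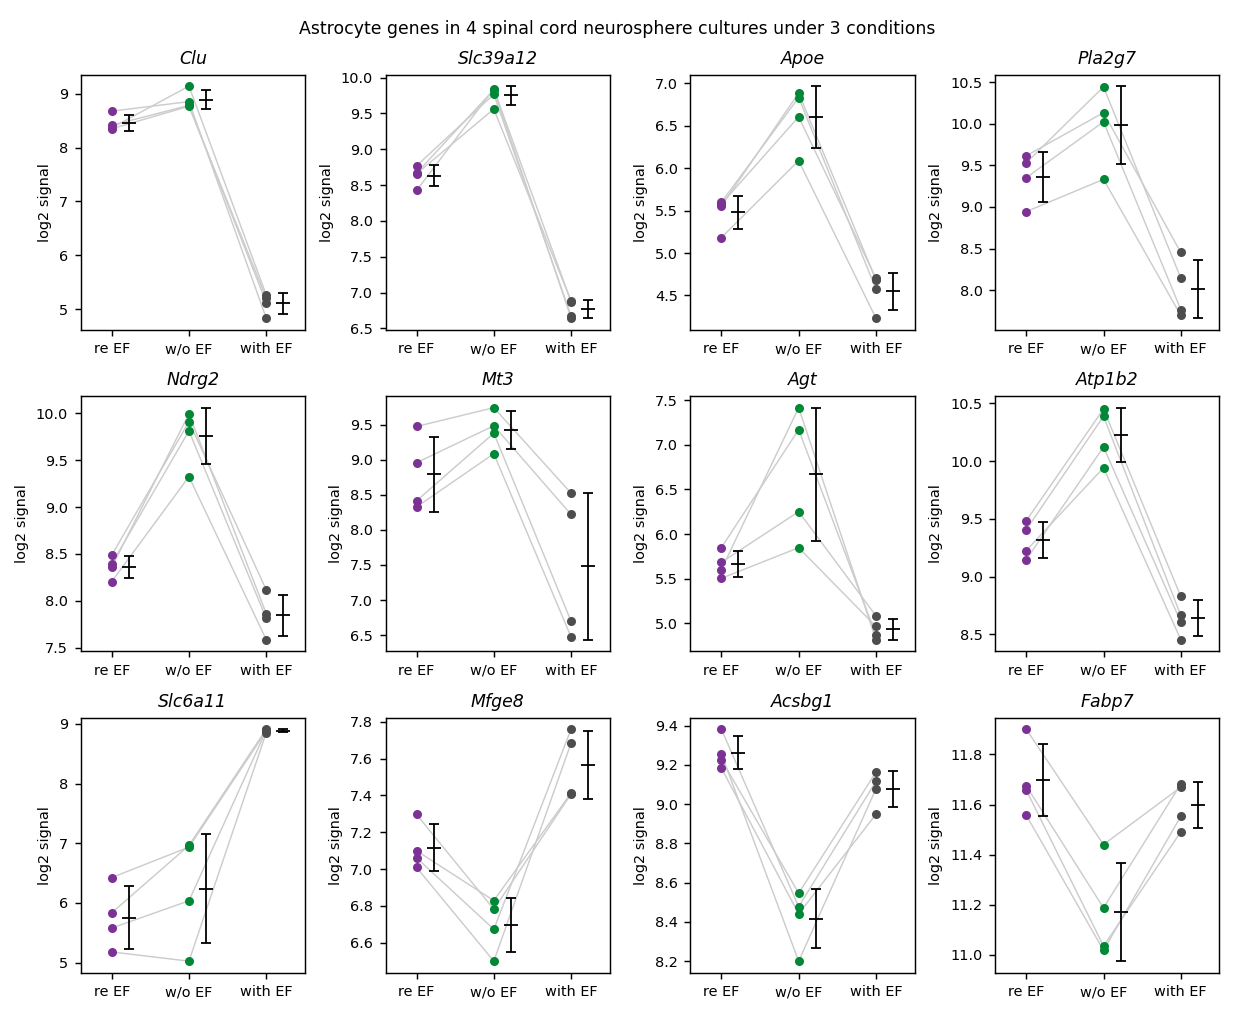
Log2 signal (vertical axis) of 12 astrocyte genes in the re EF, w/o EF and with EF conditions from left to right, with grey lines joining the arrays of a culture and a bar at the mean with whiskers of 1 SD (n = 4). Clu, Slc39a12, Apoe, Pla2g7, Ndrg2, Mt3, Agt and Atp1b2 are highest w/o EF, Slc6a11 is low in both re EF and w/o EF, and Mfge8, Acsbg1 and Fabp7 are lowest w/o EF.

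After the return of growth factors more of the list was called lower than higher. In the re EF cultures 5 of 30 genes were higher than in the w/o EF cultures and 13 were lower, where 10.1% of all genes were higher and 6.56% lower. The median log2 difference of the list was -0.49, against -0.02 over all genes. The conditions did not overlap in 18 of the 30 genes and in 20.3% of all genes. This comparison shares the w/o EF arrays with the comparison before it, so a high w/o EF value enters both and the values are given side by side without a test of their likeness.

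The 13 lower genes were Ndrg2, Apoe, Slc39a12, Agt, Atp1b2, Ntsr2, Mlc1, Nfia, Hepacam, Ppp1r3c, Sparcl1, Aldoc and Clu. Ndrg2 had 8.49, 8.36, 8.39 and 8.20 log2 units in re EF cultures, against the 9.91, 10.00, 9.81 and 9.33 in w/o EF cultures given above. It fell by 1.40 (SE 0.15, limma adjusted p = 5.6e-05), the largest fall among the 30 genes in this comparison. Apoe fell by 1.13, Slc39a12 by 1.12 and Agt by 1.01, the last with overlapping values. Clu fell by 0.43 (SE 0.12, limma adjusted p = 0.032), to 8.35, 8.37, 8.42 and 8.68 log2 units in re EF cultures.

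The 5 higher genes were Slc4a4, Acsbg1, Fabp7, Mfge8 and Glul. Slc4a4 had 10.11, 9.81, 10.02 and 10.05 log2 units in re EF cultures and 9.41, 9.36, 9.16 and 8.44 in w/o EF cultures, a rise of 0.90 (SE 0.19, 1.87-fold, limma adjusted p = 0.0081) in a gene that withdrawal had not moved past the threshold. Acsbg1 rose by 0.85 (SE 0.09, limma adjusted p = 5.5e-05), Fabp7 by 0.53 (SE 0.11, 0.0061), Mfge8 by 0.42 (SE 0.11, 0.024) and Glul by 0.34 (SE 0.09, 0.031). Slc6a11 was not called in this comparison. It had 5.83, 6.42, 5.58 and 5.18 log2 units in re EF cultures, with a difference from the w/o EF cultures of -0.49 (95% interval -1.31 to 0.34). With the culture as a block Nfib was also called higher (difference 0.24, limma adjusted p = 0.047 against 0.088 without the block) and Pla2g7 lower (-0.62, 0.0068 against 0.13).

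Of these 18 calls 7 were lost when single arrays were left out. That of Sparcl1 was lost in 1 of 12 such fits (re EF culture 2, difference -0.66, limma adjusted p = 0.054) and that of Aldoc in 4 (re EF culture 1 or 4, w/o EF culture 1 or 2, -0.48 to -0.44, 0.053 to 0.06). Mfge8 was also lost in 4 (re EF culture 3 or 4, w/o EF culture 1 or 2, 0.36 to 0.43, 0.051 to 0.071). Clu was lost in 5 (re EF culture 1, 2 or 3, w/o EF culture 2 or 4, -0.45 to -0.35, 0.055 to 0.089), and so were Agt (re EF culture 2, 3 or 4, w/o EF culture 1 or 2, -1.02 to -0.76, 0.064 to 0.083) and Glul (re EF culture 1, 2 or 4, w/o EF culture 2 or 3, 0.29 to 0.35, 0.054 to 0.088). Ppp1r3c was lost in 7 (any re EF culture, w/o EF culture 1 or 3, with EF culture 2, -0.79 to -0.54, 0.051 to 0.12). The calls of Aldoc, Clu, Ppp1r3c and Agt were also lost with arrays centred on their medians, those of Glul and Mfge8 after quantile normalization, and those of Glul, Ppp1r3c and Agt in a fit of these conditions alone. Glul was lost with the mean of its probe sets as well.

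Set against the growing cultures, the re EF cultures differed. They had been through a step with serum and a coated surface that the growing cultures had not. Of the 30 genes 10 were higher than in the with EF condition and 3 lower, where 7.86% of all genes were higher and 7.43% lower, and the median of the list was 0.16, against -0.02 over all genes. Clu was higher by 3.35 (SE 0.12, 10.2-fold, limma adjusted p = 4.5e-08), Slc39a12 by 1.86 (SE 0.10, 3.63-fold, 4.3e-07) and Pla2g7 by 1.34 (SE 0.24, 0.003). Slc4a4 was higher by 1.02, Apoe by 0.93, Atp1b2 by 0.68, Sparcl1 by 0.59, Hepacam by 0.58, Ndrg2 by 0.52 and Mlc1 by 0.28. Slc6a11 was lower by 3.13 log2 units (log2 difference -3.13, SE 0.38, limma adjusted p = 2.0e-04), and Mfge8 and Nfia differed by -0.45 and -0.44, both called lower. Of the 15 genes that rose on withdrawal, 12 had a re EF mean between their with EF and w/o EF means, and Aldoc, Ntsr2 and Nfia had one below the with EF mean. The 15 were picked for high w/o EF values on the same arrays, and the share among all genes that rose was not taken. The count of 12 therefore has no background. Here 5 of the 13 calls were lost when single arrays were left out. Ndrg2 was lost in 9 of 12 fits with an array left out (all but w/o EF cultures 2 and 4 and with EF culture 1, differences of 0.43 to 0.57, limma adjusted p of 0.057 to 0.14) and Sparcl1 in 9 (all but w/o EF cultures 1 and 4 and with EF culture 1, 0.49 to 0.63, 0.055 to 0.14). Mlc1 was lost in 6 (re EF culture 1, 3 or 4, with EF culture 1, 3 or 4, 0.25 to 0.29, 0.063 to 0.11), Mfge8 in 4 (re EF culture 1 or 3, with EF culture 1 or 2, -0.44 to -0.38, 0.055 to 0.067) and Nfia in 3 (re EF culture 3, with EF culture 1 or 2, -0.42 to -0.39, 0.054 to 0.056). The calls of Ndrg2 and Sparcl1 were also lost with arrays centred on their medians and that of Mlc1 in a fit of these conditions alone. With the culture as a block Mt3 was also called higher (difference 1.31, limma adjusted p = 0.0063 against 0.082 without the block).

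The calls after injury and after withdrawal were set side by side. Of the 28 genes measured on both array types, 2 rose in both, Aldoc and Atp1b2, and 0 fell in both. Another 3 were called in opposite directions: Fabp7 and Mfge8 rose after injury and fell w/o EF, and Agt fell after injury and rose w/o EF. Of the 5 genes that rose after injury 40% thus fell w/o EF, against 26.6% of all genes that rose after injury, and of all genes that fell after injury 44.4% rose w/o EF. Aldh1l1 was called after injury alone. After withdrawal alone 12 genes rose and 3 fell, and 7 were called in neither.

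The 2 genes that rose in both were 40% of the 5 that rose after injury and 13.3% of the 15 that rose after withdrawal. Over the 15938 genes found in both tables, those that rose in both were 32.2% of the genes that rose after injury and 6.6% of those that rose after withdrawal. The log2 differences had the same sign in 13 of the 28 astrocyte genes (46.4%) and in 48% of all genes. Across the 28 genes, which are not independent replicates, Pearson's r between the differences was -0.45 and Spearman's rho -0.47, against -0.08 and -0.09 across all genes and 0.15 and 0.08 across 48 genes of a second astrocyte list. No sample is shared by these comparisons, but they differ in tissue, array type, treatment and the number of arrays, and the difference between them was not tested.

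**Figure D4:**
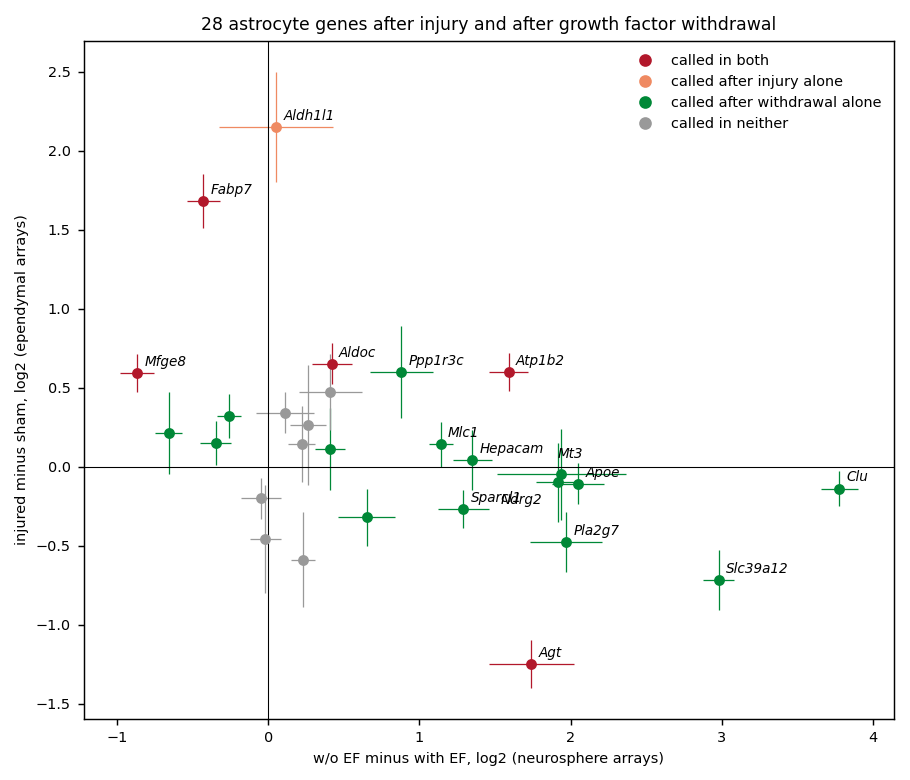
Log2 difference injured minus sham (vertical axis) against w/o EF minus with EF (horizontal axis) for the 28 astrocyte genes found in both tables, with whiskers of 1 standard error. The genes with the largest rises after withdrawal, Clu and Slc39a12, lie below 0 after injury at -0.14 and -0.72, where neither was called. The genes with the largest rises after injury, Aldh1l1 and Fabp7, lie near 0.05 and -0.43 after withdrawal.

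A second list of 52 genes enriched in astrocytes, none of them among the 30, was read in the same way, and 50 were found in each table. After injury 4 of these 50 rose and 1 fell, where 2.91% of all genes rose and 1.87% fell. Gfap, the intermediate filament of astrocytes, had a mean of 11.44 ± 0.41 log2 units in injured mice and 8.68 ± 0.88 in sham mice (SD, n = 6 each), a rise of 2.76 (SE 0.36, 6.75-fold, limma adjusted p = 8.9e-04). This is the brightest of 3 Gfap probe sets, and the paper lists a larger fold change for Gfap. Scara3 rose by 1.43, Mgst1, a glutathione transferase, by 1.00, and Lrig1 by 0.94, and Cbs, which makes cystathionine, fell by 0.89.

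After withdrawal 27 of the 50 rose and 4 fell, where 12.1% of all genes rose and 16.2% fell. Aqp4, the water channel of astrocyte end feet, rose by 4.50 (SE 0.25, 22.7-fold, limma adjusted p = 9.6e-08), Id4, an inhibitor of helix-loop-helix factors, by 3.59, Daam2 by 3.37 and Phkg1, a subunit of phosphorylase kinase, by 2.85. Gldc of the glycine cleavage system fell by 1.27, the matrix protein Tnc by 1.25, Elovl2 by 0.74 and the glutamate receptor subunit Grin2c by 0.66. Gfap rose by 4.06 and is given here because of its rise after injury, outside the rule for named genes and after its value was seen. On return of the factors 9 of the 50 were higher than w/o EF and 19 lower, where 10.1% of all genes were higher and 6.56% lower. Scara3 was 2.29-fold higher, with means of 5.48 log2 units in re EF and 4.29 in w/o EF cultures, Timp4, Tnc and Axl rose by 1.30, 1.07 and 1.07 log2 units, and Id4, Phkg1, Daam2 and Fgfr3 fell by 3.07, 2.02, 1.83 and 1.16.

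Compared with the growing cultures 21 of the 50 were higher in re EF and 5 lower, where 7.86% of all genes were higher and 7.43% lower. Aldh1a1 was higher by 3.62, Aqp4 by 2.97, Axl by 2.78 and Scara3 by 1.21, and Elovl2, Gldc, Grin2c and Plpp3 differed by -1.22, -0.75, -0.71 and -0.42. Between injury and withdrawal 48 of these genes could be set side by side. Of these 2 rose in both, 24 rose after withdrawal alone and 0 were called in opposite directions, and the signs were the same in 66.7%.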

How the data were processed

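The deposited values are log2 signals that the authors made with RMA (background correction, normalization between arrays and 1 summary value per probe set). Affymetrix Expression Console 1.2.1 is listed in the submitters' processing notes. The 2 tables are of different array types. No genome build was given in the sources used here. Control probe sets were left out (104 ependymal, 190 neurosphere), and 45037 and 41155 probe sets were tested. Array annotations gave 1 gene for 28898 and 23521 of them, several for 551 and 1820 and none for 15588 and 15814.

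Groups were compared with limma 3.58.1 (lmFit, eBayes) in R 4.3.3, two-sided, with Benjamini-Hochberg adjustment over all probe sets and a threshold of 0.05. Injured and sham arrays had a fit of their own, and the 3 neurosphere groups shared one, both without a block. The methods name the TAC software, an unadjusted p and a fold change, which were run as an alternative. They give these thresholds for injured against control cords, and here they were applied to the cultures as well. The script was tested on simulated data. A gene received its values on each array (groups of 6: lowest, median and highest) if it was called after injury or after withdrawal. Of the second astrocyte list up to 4 genes per direction with the smallest p were named. Promoters were shown for genes called in both. Members, lists and tests were chosen with earlier results of these data known. Each ependymal array is a separate mouse, and each culture came from a different mouse.

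The labels give the 3 conditions of a culture the same mouse number, and every same-numbered pair of arrays correlated above 0.1. With group means taken out, their correlation was 0.312 to 0.391 between w/o EF and with EF, 0.275 to 0.359 between re EF and w/o EF and 0.16 to 0.306 between re EF and with EF. In the last, arrays of different number reached 0.356, and 2 of 4 arrays correlated best with their own number, against 4 of 4 in each of the others. Injured and sham mice share numbers but are different animals. Their correlation of 0.425 to 0.786 was -0.1 to 0.201 after removal of each set's mean. Other alternatives were the scaling of arrays, filters on low signals, the variance model, array weights, the probe sets of a gene, the set of arrays, and leaving out arrays. Depth has no meaning for arrays, and their number limits the precision. Figures were drawn with matplotlib 3.10.9.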

Additional observations from a re-analysis of the deposited data

Results flagged for a closer look

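In 5 of 146 groups of values of the astrocyte genes, 1 array lay far from the others of its group by Dixon's test, where chance alone flags about 1 in 20. Apoe was at 5.18 log2 units in re EF culture 4, with the other re EF cultures at 5.55 to 5.60. Slc1a3 was at 9.71 in w/o EF culture 4, with the others at 9.92 to 9.94, and Nfia at 9.96 in w/o EF culture 2, with the others at 9.55 to 9.58. Cldn10 was at 8.17 on injured array 6, one of the 4 arrays highest in skeletal muscle genes, with the other injured arrays at 6.62 to 7.04. Ntsr2 was at 7.78 on sham array 6, also one of the 4, with the other sham arrays at 8.34 to 8.51. The call of Slc1a3 after withdrawal was lost without that array, whereas that of Nfia was not.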

How the results depend on the processing

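No called difference of the 30 astrocyte genes changed sign under any alternative. Apart from ranges with 1 array left out, counts are given here only where they moved by over 1.5 times from those above. A move to 0 is included, so a direction not named was not 0. After injury, 4 astrocyte genes were lower after quantile normalization, 2 without probe sets under the median signal and 2 with the mean of a gene's probe sets. With the replicate number as a block (replicate block), 8 were higher and 4 lower, and of the second astrocyte list 10 and 8. With the set as a block these were 8 and 5, and 13 and 7. Shares of all genes are also given above for the fits without the arrays highest in muscle or neutrophil genes. The other counts in this section have no such share beside them. Each fit within a set compared 2 injured with 2 sham arrays. Within set 1, 4 astrocyte genes were lower, and 10 of the second list higher. Within set 2, 3 were higher and 2 lower, and 2 of the second list lower. Within set 3, 1 was higher and 0 lower, in each list. Without the 4 arrays highest in muscle genes, 1 was higher. With the set as a block as well, chosen after seeing the data, 2 were lower, and of the second list 9 were higher and 3 lower. Without the 5 arrays highest in neutrophil genes, also chosen after seeing the data, 3 were higher, and 2 of the second list lower. At the study's thresholds 2 were higher. Aldoc, which the paper also reports as increased, was not among them. It was read here from its brighter probe set, at 0.65, whereas its dimmer probe set differed by 1.46.

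After withdrawal, 4 astrocyte genes were lower after quantile normalization and 3 by Tukey's comparison on linear values with Benjamini-Hochberg adjustment. At the study's thresholds, which the methods give for the injured cords alone, 1 was lower, and the second list had 17 higher and 2 lower. For re EF against w/o EF, 3 were higher after quantile normalization. By Tukey's comparison 3 were higher and 7 lower, and at the study's thresholds 0 and 4, with 5 and 8 of the second list. For re EF against with EF, Tukey's comparison gave 3 higher and 1 lower, and 7 and 3 of the second list, and the study's thresholds 5 and 1, and 9 and 1. Between injury and withdrawal, 1 gene was called in the same direction with arrays centred on the median and 0 at the study's thresholds. In opposite directions 5 were called after quantile normalization and with the replicate block and 1 at the study's thresholds. In the neurospheres the replicate block, here the culture, changed no call of the 30 genes other than those of Nfib, Pla2g7 and Mt3, and moved no count of the second list by over 1.5 times.

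With 1 array left out at a time, the counts of astrocyte genes higher and lower were 4 to 5 and 1 to 2 after injury, 13 to 17 and 5 to 7 after withdrawal, 3 to 5 and 9 to 13 for re EF against w/o EF, and 7 to 12 and 1 to 3 for re EF against with EF. For the second list they were 2 to 4 and 1 to 2, 25 to 28 and 4, 7 to 10 and 16 to 19, and 17 to 22 and 4 to 5. Arrays whose loss moved a count by over 1.5 times were, for the 30 genes, sham 4 or injured 5 (2 lower after injury), re EF culture 4 (3 higher than w/o EF) and re EF culture 3 or with EF culture 1 or 2 (1 lower than with EF). For the second list they were injured 1, 5 or 6 (2 higher) and injured 2 (2 lower).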

Other observations

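The neurosphere arrays also held genes of other cell types. Of 11 ependymal genes 7 rose w/o EF and 7 fell on return of the factors, with means of 4.53 to 4.70 log2 units in re EF, 5.17 to 5.21 in w/o EF and 4.29 to 4.47 in with EF cultures. Of 7 oligodendrocyte precursor genes 4 fell w/o EF, and 5 of 8 neural stem cell and radial glia genes rose and 3 fell. The 13 microglia and macrophage genes had a median log2 difference of 0.03 w/o EF, with means of 3.69 to 3.96 log2 units in w/o EF and 3.71 to 3.75 in with EF cultures. In the injured ependymal region 2 of 8 neural stem cell and radial glia genes rose and 1 of 6 oligodendrocyte precursor genes rose.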
